A study of Mus musculus with 9 samples.

Results

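Fgf21, Vnn1, Cyp4a14, Cyp4a31 and Bdh1 were taken here as response genes of the nuclear receptor PPAR alpha and of fasting. These 5 genes were followed mouse by mouse in livers lacking the corepressor SMRT or both SMRT and NCoR. The members were the genes with these symbols in the array annotation, 5 of 22180 genes measured, and each of the 5 was read by 1 probe set carrying that symbol alone. Livers of 9 mice were profiled with Affymetrix microarrays that probe whole transcripts, each mouse on its own array and 3 mice per group. The double KO mice lacked SMRT and NCoR in the liver, the SMRT KO mice lacked SMRT there, and the control mice were SMRT and NCoR fl/fl, with floxed alleles of both genes. All were euthyroid females of 7 to 9 weeks on a 129SV/B6 mixed background, fed standard chow without restriction. The labels give neither the driver of the liver deletion, nor the NCoR alleles of the SMRT KO mice, nor the hour and feeding state at which livers were taken. They do not say whether the groups were littermates, and the genotypes were not checked here. The replicates are individual mice, so the spread given is between animals.

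PPAR alpha is a receptor for fatty acids and their derivatives that pairs with the retinoid X receptor RXR on DNA elements made of a short repeated site. In fasting it raises the genes of fatty acid uptake, oxidation and ketone production in hepatocytes. Without ligand it can be held down by the corepressors SMRT and NCoR, which bring histone deacetylase to the gene. Fgf21 encodes a hormone that the liver secretes in fasting and under cellular stress. Vnn1 encodes pantetheinase, which releases the coenzyme A precursor pantothenate from pantetheine. Cyp4a14 and Cyp4a31 encode cytochromes P450 of a family that hydroxylates fatty acids at the omega end. Bdh1 encodes the mitochondrial dehydrogenase that turns acetoacetate into the ketone body beta-hydroxybutyrate.

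Among the members, RefSeq promoter windows were at hand for 2, Fgf21 and Bdh1. That of Fgf21 is shown because several stress and nutrient pathways are known to meet at this gene, and its level is described further on. It runs from 250 bases before to 50 after the start of the gene, at chr7:45615441-45615740 on the minus strand of GRCm38.p6. The capitals mark 3 motifs. In order along the window these are TTGCATCA, a core of the element read by ATF4 with a C/EBP partner, then the E-box CACGTG, then the TATA box in its form TATAAA.
Fgf21 promoter: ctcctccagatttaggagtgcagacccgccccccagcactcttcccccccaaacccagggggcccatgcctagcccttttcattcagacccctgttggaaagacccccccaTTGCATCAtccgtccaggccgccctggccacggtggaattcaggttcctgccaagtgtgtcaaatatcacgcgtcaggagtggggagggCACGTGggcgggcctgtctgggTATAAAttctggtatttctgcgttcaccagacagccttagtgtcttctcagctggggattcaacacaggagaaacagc
The match to TTGCATCA begins 139 bases before the start and that to the E-box 50 bases before it, with no overlap between the motifs marked. Searched on both strands, TTGCATCA was found in 0.895% of 32851 windows of this length, the E-box in 7.15% and the TATA box in 13.6%. The PPAR element, searched as a direct repeat of AGGTCA with 1 base of any kind between the copies, was found in 0.0396% of windows, with no exact match in the Fgf21 or Bdh1 windows. The closest stretch in the Fgf21 window matched 8 of its 12 fixed letters, and 79.8% of all windows held a stretch at least as close.

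The 5 genes comprised 3 P450 and pantetheinase genes with higher means in double KO livers and a pair, Fgf21 and Bdh1, whose means lay close together in all groups. By limma, 0 of the 5 passed an adjusted p of 0.05 in double KO against control livers, where 0.843% of all genes did, and 3 of the 5 had an unadjusted p under 0.05, where 10.8% of all genes did. Against SMRT KO livers the double KO livers likewise gave 0 of 5 (1.19% of all genes), with 3 at an unadjusted p under 0.05 (10.5% of all genes). In SMRT KO against control livers 0 of 5 passed (0.00451% of all genes) and 0 had an unadjusted p under 0.05 (6% of all genes). The median log2 fold change of the 5 was 0.51 in double KO against control livers, 0.05 in SMRT KO against control livers and 0.46 in double KO against SMRT KO livers. The same median over all genes was 0.0036, 0.00087 and 0.0017. The comparisons share arrays in pairs, so these values are not independent of each other. In the test for any difference among the 3 groups, 0 of 5 passed (1.07% of all genes), with a lowest adjusted p of 0.177, and 3 had an unadjusted p under 0.05. Between SMRT KO and control livers, the groups overlapped for all 5 genes, so that 0 of 5 stood apart, against 3.8% of all genes with SMRT KO higher and 4.36% with SMRT KO lower. All values below are log2 expression unless a fold is named, and levels are compared between groups of mice, not between genes.

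**Figure D1:**
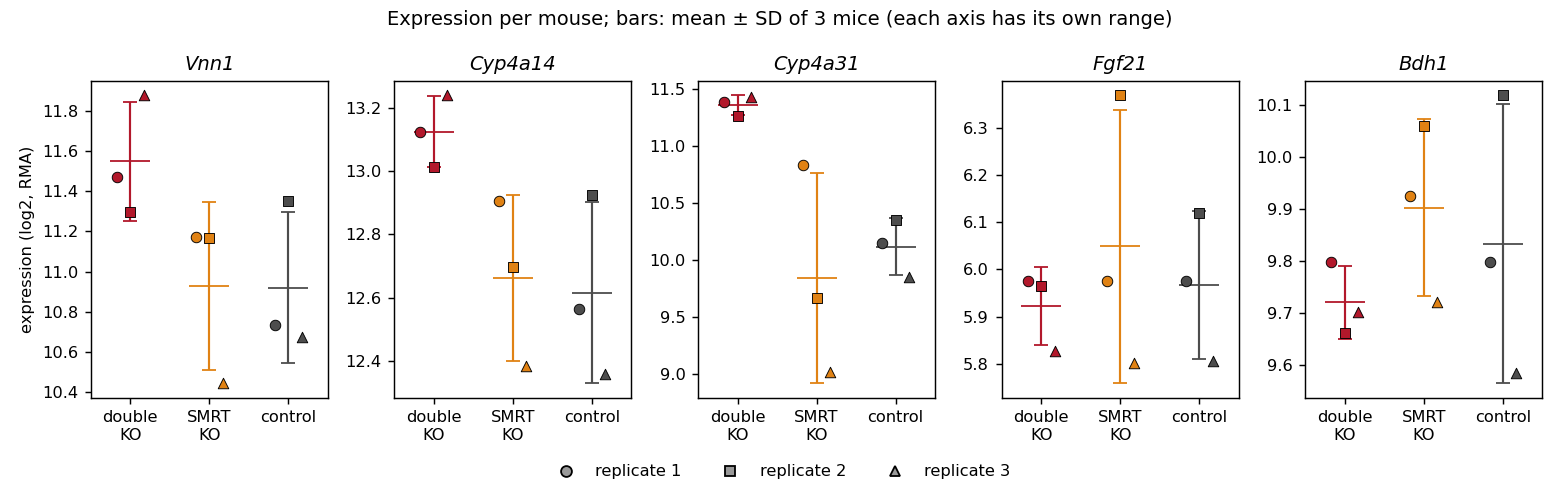
Expression (log2) of the 5 genes in each mouse, in double KO, SMRT KO and control livers from left to right, with the mean and SD of 3 mice. The 3 double KO livers lie above all control livers for Cyp4a14 and Cyp4a31, while the groups overlap for Vnn1, Fgf21 and Bdh1.

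Cyp4a31 showed the widest separation of the 5. It was at 11.38, 11.26 and 11.43 in double KO livers, at 10.83, 9.67 and 9.02 in SMRT KO livers and at 10.15, 10.35 and 9.86 in control livers. The 3 double KO livers were thus close together and above the other 6 livers, while the SMRT KO livers were spread over a range of 1.82 that enclosed all 3 controls. The mean was 11.4 ± 0.0869 in double KO and 10.1 ± 0.250 in control livers (SD, n = 3 each), a 2.36-fold difference. On the log2 scale this was 1.24 (standard error 0.365, 95% interval 0.42 to 2.06, limma adjusted p = 0.221). Against the SMRT KO mean of 9.84 ± 0.920 it was 2.86-fold higher in double KO livers, a log2 fold change of 1.52 (95% interval 0.70 to 2.34, adjusted p = 0.108). SMRT KO livers had a log2 fold change of -0.28 against control (95% interval -1.10 to 0.54, adjusted p = 0.952). The SD of Cyp4a31 among SMRT KO livers was at the 99.9th percentile of all genes, and that among double KO livers at the 48.3rd.

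The spread among SMRT KO livers enters every test of Cyp4a31, since the 3 groups share 1 estimate of it. With only double KO and control livers in the fit, the same difference of 1.24 passed (adjusted p = 0.0198). It also passed without SMRT KO replicate 1, the SMRT KO liver with the highest value (adjusted p = 0.0276). Without that mouse, double KO exceeded SMRT KO livers by 2.01, which passed as well (adjusted p = 0.00933). Of the 9 fits that left out 1 mouse, the fit without SMRT KO replicate 1 was the only 1 that passed in either comparison. Over 15 alternatives 2 passed for double KO against control livers, with adjusted p from 0.0198 to 0.475. For double KO against SMRT KO livers 1 of the 15 passed, with adjusted p from 0.00933 to 0.292.

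Cyp4a14 differed by less. Its SD was below that of Cyp4a31 among SMRT KO livers (0.264 against 0.920). Among double KO livers (0.113 against 0.0869) and control livers (0.287 against 0.250) it was slightly above. It was at 13.12, 13.01 and 13.24 in double KO livers, at 12.91, 12.70 and 12.38 in SMRT KO livers and at 12.56, 12.92 and 12.36 in control livers. All 3 double KO livers were above all 6 others, with SMRT KO replicate 1 and control replicate 2 the nearest below. Non-overlap in this direction was found for 2 of the 5 genes, Cyp4a14 and Cyp4a31, in double KO against control livers, where 7.73% of all genes showed it, and in the lower direction for 0 of 5 (7.25% of all genes). The mean was 1.42-fold higher in double KO than in control livers (log2 fold change 0.51, standard error 0.162, 95% interval 0.15 to 0.87, adjusted p = 0.259). Against SMRT KO livers it was 1.38-fold higher (log2 fold change 0.46, adjusted p = 0.319). SMRT KO and control means were 12.7 ± 0.264 and 12.6 ± 0.287 (SD, n = 3 each), a difference of 0.05 with a 95% interval of -0.32 to 0.41. Over the 15 alternatives Cyp4a14 did not pass in any comparison, with a lowest adjusted p of 0.111 in double KO against control livers.

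Vnn1 was at 11.47, 11.30 and 11.88 in double KO livers, at 11.17, 11.17 and 10.44 in SMRT KO livers and at 10.73, 11.35 and 10.67 in control livers. Double KO livers lay above all SMRT KO livers but overlapped the controls, because control replicate 2 was higher than double KO replicate 2. Non-overlap with SMRT KO livers, higher in double KO livers, held for 3 of the 5 genes, Vnn1 and both P450 genes, and for 7.54% of all genes, against 0 of 5 and 6.21% in the lower direction. The mean of Vnn1 was 1.55-fold higher in double KO than in control livers (log2 fold change 0.63, standard error 0.246, 95% interval 0.08 to 1.18, adjusted p = 0.386). The difference from SMRT KO livers was 0.62 (adjusted p = 0.404), and 0.38 without SMRT KO replicate 3 (adjusted p = 0.598). SMRT KO and control means differed by 0.0070, with a 95% interval of -0.55 to 0.56.

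Fgf21 did not separate the groups. It was at 5.97, 5.96 and 5.83 in double KO livers, at 5.97, 6.37 and 5.80 in SMRT KO livers and at 5.97, 6.12 and 5.81 in control livers. The highest value was in SMRT KO replicate 2 and the lowest in SMRT KO replicate 3, so that group enclosed both others. The log2 fold change was -0.04 in double KO against control livers (standard error 0.138, 95% interval -0.36 to 0.27, adjusted p = 0.950), 0.08 in SMRT KO against control livers (interval -0.23 to 0.39) and -0.13 in double KO against SMRT KO livers (interval -0.44 to 0.18). These values were not shown to be above background. The 1390 olfactory and vomeronasal receptor genes on the array, which liver is not known to use, had medians of 3.73 to 4.13 and 95th percentiles of 5.91 to 6.22 over the arrays, and Fgf21 was above that 95th percentile in 3 of 9 arrays. A difference in Fgf21 RNA below what the probe set resolves was therefore not detectable. Fgf21 had exactly equal values in 3 arrays, replicate 1 of each group, and 43.8% of probe sets had at least 1 pair of arrays equal to 6 decimals.

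Bdh1 was at 9.80, 9.66 and 9.70 in double KO livers, at 9.93, 10.06 and 9.72 in SMRT KO livers and at 9.80, 10.12 and 9.58 in control livers. The double KO values lay inside the range of the controls and were the least spread of the 3 groups (SD 0.0702, against 0.170 in SMRT KO and 0.269 in control livers). The log2 fold change was -0.11 in double KO against control livers (standard error 0.134, 95% interval -0.41 to 0.19, adjusted p = 0.837). It was 0.07 in SMRT KO against control livers (interval -0.23 to 0.37) and -0.18 in double KO against SMRT KO livers (interval -0.48 to 0.12, adjusted p = 0.732).

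**Figure D2:**
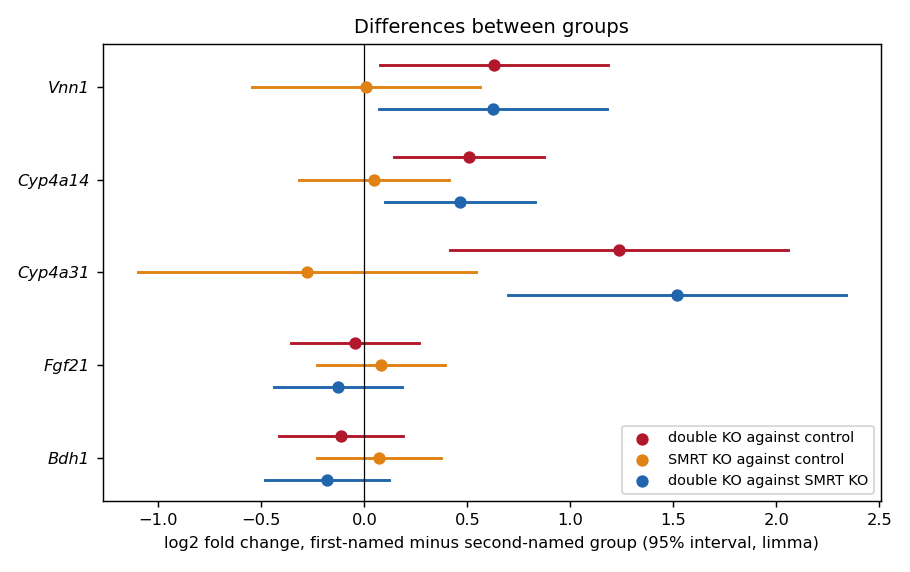
Log2 fold change of the 5 genes in the 3 comparisons, first-named minus second-named group, with 95% intervals from limma. Intervals of Vnn1, Cyp4a14 and Cyp4a31 lie above 0 where double KO livers are compared, before adjustment over all genes, and those of Fgf21 and Bdh1 span 0 in all 3 comparisons.

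The 5 genes ranked the control mice in 1 common order, and shared some but not all of their order in the other groups. Control replicate 3 was the lowest control and SMRT KO replicate 3 the lowest SMRT KO liver for all 5 of them, and control replicate 2 was the highest control for all 5. The highest SMRT KO liver was replicate 1 for 3 of the genes and replicate 2 for the other 2, Fgf21 and Bdh1. This ordering was noticed after the values were seen. Over all genes control replicate 3 was the lowest control in 27.5%, SMRT KO replicate 3 the lowest of its group in 34.3% and control replicate 2 the highest control in 31.2%. Among 39 other measured PPAR alpha targets, control replicate 3 was lowest for 28 and SMRT KO replicate 3 for 30, while control replicate 2 was highest for 21. In double KO livers, replicate 3 was the highest for Vnn1, Cyp4a14 and Cyp4a31 and for 29 of the 39 targets (33.8% of all genes), and replicate 2 was the lowest for 4 of the 5 members and 28 of the 39 (30.2% of all genes). The median deviation of the 39 targets from their group means was -0.16 in SMRT KO replicate 3, -0.08 in control replicate 3 and 0.12 in double KO replicate 3. Genes read on the same array share its RNA and its normalization, so these counts describe 9 livers and carry no test.

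**Figure D3:**
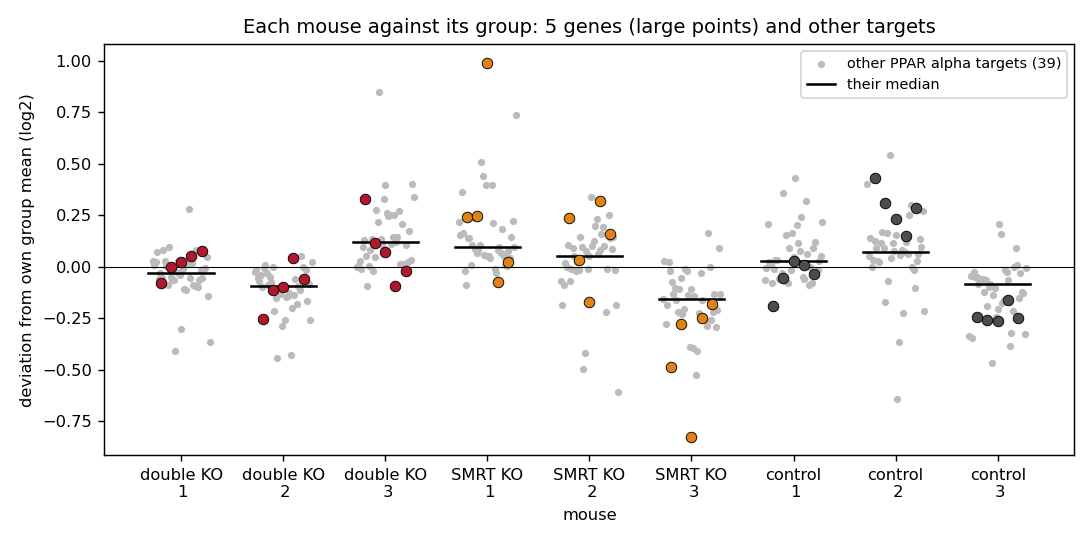
Deviation of each mouse from the mean of its own group (log2), for the 5 genes (large points) and 39 other PPAR alpha targets (small grey points, with their median as a bar). All 5 genes lie below 0 in control replicate 3 and SMRT KO replicate 3, and all 5 lie above 0 in control replicate 2.

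The wider set of PPAR alpha targets contained genes that passed where the 5 did not. Of 46 listed targets other than the 5, 39 were measured by a probe set of their own, and the other 7 were not analysed here. In double KO against control livers 8 of 39 rose, 0 fell and 31 did not pass, against 0.523% of all genes that rose and 0.32% that fell. Their median log2 fold change was 0.19, with 32 of 39 above 0, against 11379 of all 22180 genes. Against SMRT KO livers 6 of 39 rose and 0 fell (0.748% and 0.437% of all genes), with a median of 0.31. Of these 6, Pdk4 failed without SMRT KO replicate 2 or 3 or double KO replicate 2 (adjusted p at most 0.076) and in a fit of the 2 groups alone (0.07). Over the 15 alternatives Pdk4 failed in 5 here. Acot2 failed without SMRT KO replicate 1 or 3 or double KO replicate 2 (at most 0.0573) and in the fit of 2 groups (0.0579). In SMRT KO against control livers 0 of 39 passed by limma (0.00451% of all genes), and 6 had an unadjusted p under 0.05 (6% of all genes). Here 11 of 39 lay above 0, against 11178 of all 22180 genes, and the median was -0.09. Cyp4a31, at 1.24, had the seventh largest log2 fold change of the 44 genes in double KO against control livers, behind 6 genes that passed.

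The 5 targets with the largest differences among those that passed were Pdk4, Acot1, Ehhadh, Acot2 and Acaa1b. Pdk4, which restrains glucose oxidation, was at 9.17, 9.13 and 10.43 in double KO livers and at 7.14, 7.76 and 6.75 in control livers (5.13-fold, adjusted p = 0.0281). The acyl-CoA thioesterase Acot1 was at 9.50, 9.25 and 9.87 in double KO livers and at 7.70, 7.61 and 7.30 in control livers (4.01-fold, adjusted p = 0.00357), and its mitochondrial relative Acot2 rose 2.71-fold (adjusted p = 0.0054). The groups did not overlap for either. Ehhadh, the bifunctional enzyme of peroxisomal oxidation, was at 12.99, 12.93 and 12.96 in double KO livers and at 11.30, 11.76 and 11.03 in control livers (3.02-fold, adjusted p = 0.00357). Acaa1b, the peroxisomal thiolase, rose 2.52-fold (adjusted p = 0.0114). The other 3, named to complete the count, were the fatty acid transporter Cd36 and the lipid droplet proteins Plin2 and Fitm1. Ehhadh, Acot1, Acot2 and Cd36 passed in all 9 fits that left out 1 mouse, while Acaa1b failed when any 1 of the double KO mice was left out (adjusted p at most 0.061). Pdk4 failed without SMRT KO replicate 3, control replicate 1 or 3 or any double KO mouse (at most 0.12), as it did in a fit of those 2 groups alone (0.0825). Plin2 failed without control replicate 1 or 3 or double KO replicate 1 or 3 (at most 0.0694), and Fitm1 in 6 of 9 such fits, all 3 double KO mice among them (at most 0.112). Over all 15 alternatives Fitm1 failed in 7, and its log2 fold change, 1.05 in the main fit, ranged from 0.62 to 1.21. The count of 8 became 4 without double KO replicate 1 or 3 and 5 without double KO replicate 2 or control replicate 3.

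**Figure D4:**
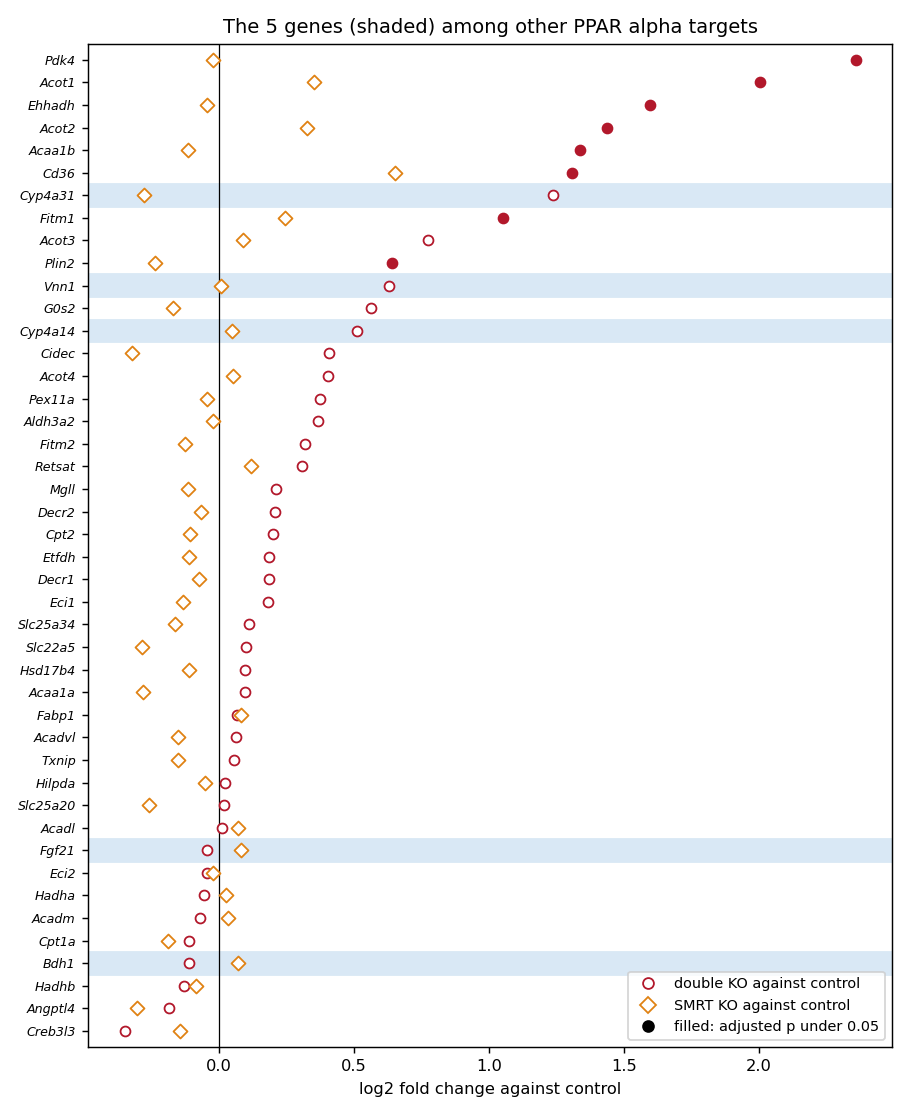
Log2 fold change against control of the 5 genes (shaded rows) and 39 other PPAR alpha targets, in double KO (circles) and SMRT KO livers (diamonds), with filled symbols below an adjusted p of 0.05. In double KO livers 8 of the other targets are filled and all 5 shaded genes are open; in SMRT KO livers every symbol is open.

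Genes were ranked by closeness in pattern to Vnn1, Cyp4a14 and Cyp4a31 over the 9 livers. The measure was the root mean square difference of log2 values after each gene was centred on its own mean. Such a ranking always returns nearest genes, and without a reference distance it cannot show that a pattern was shared. For scale, the SD over the 9 livers was 0.847 for Cyp4a31, 0.447 for Vnn1 and 0.318 for Cyp4a14. The fold changes below come from the values that selected the genes, so they add no separate evidence. Closest to Cyp4a31 were Acaa1b (0.296), the NADPH-producing malic enzyme Me1 (0.315) and the mitochondrial carrier Slc25a30 (0.321). Acaa1b and Me1 passed in double KO against control livers, with log2 fold changes of 1.34 and 1.41 (adjusted p = 0.0114 and 0.0195), while Slc25a30 had 0.95 (adjusted p = 0.237). Closest to Cyp4a14 were Bhlhb9 (0.0706), the peroxisomal dehydrogenase-like gene Hsdl2 (0.0836) and Rnf24 (0.111), and closest to Vnn1 were the receptor gene Nrp1 (0.123), Pelo (0.142) and Paqr9 (0.148). These 6 genes had log2 fold changes of 0.37 to 0.73 in double KO against control livers, at adjusted p of 0.211 to 0.558. Fgf21 and Bdh1 varied too little over the arrays (SD 0.179 and 0.181, under the minimum of 0.3) for such a ranking.

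Cyp4a14 and Cyp4a31 lie in a run of near relatives, with Cyp4a10 between them and Cyp4a32 after Cyp4a31 in the gene order of GRCm38.p6. Their probe sets may take up RNA of these relatives, so the values of Cyp4a31 in particular are uncertain as a reading of that gene alone. A probe set assigned to both Cyp4a10 and Cyp4a31 was at 13.25, 13.27 and 13.36 in double KO livers, at 13.15, 12.94 and 12.50 in SMRT KO livers and at 12.90, 13.02 and 12.53 in control livers. The 3 double KO livers were again above all others, by 1.39-fold in the mean over control, which did not pass over all probe sets (adjusted p = 0.451). The size of the difference was thus 0.48 for this probe set and 1.24 for that of Cyp4a31 alone. Another probe set, assigned to Cyp4a32 and Cyp4a10, gave 0.56 (adjusted p = 0.645).

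Of 15 other measured Cyp4 genes 0 passed by limma in any of the 3 comparisons, with a lowest adjusted p of 0.0745. At an unadjusted p under 0.05 there were 5 in double KO against control, 2 in SMRT KO against control and 4 in double KO against SMRT KO livers, where 10.8%, 6% and 10.5% of all genes were. Cyp4a12a, which is known as a male-biased P450 of mouse liver, was at 5.50, 4.91 and 7.13 in double KO livers and at 4.46, 4.76 and 4.88 in control livers. Its neighbour Cyp4a12b was at 6.90, 6.71 and 7.89 in double KO livers and at 6.32, 6.11 and 6.42 in control livers. All double KO livers were above all controls for both genes, replicate 3 most, at adjusted p = 0.392 and 0.251. Over the 15 genes the double KO livers lay above all controls for these 2 and below them for 2 (7.73% and 7.25% of all genes). All Cyp4a12a values except that of double KO replicate 3 were below the receptors' 95th percentile. This pair was chosen after its values were seen. Cyp4a29 and Cyp4a30b of the same run, not drawn, had means of 3.95 and 4.09 in double KO, 4.10 and 4.19 in SMRT KO and 3.86 and 4.08 in control livers, highest in SMRT KO.

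**Figure D5:**
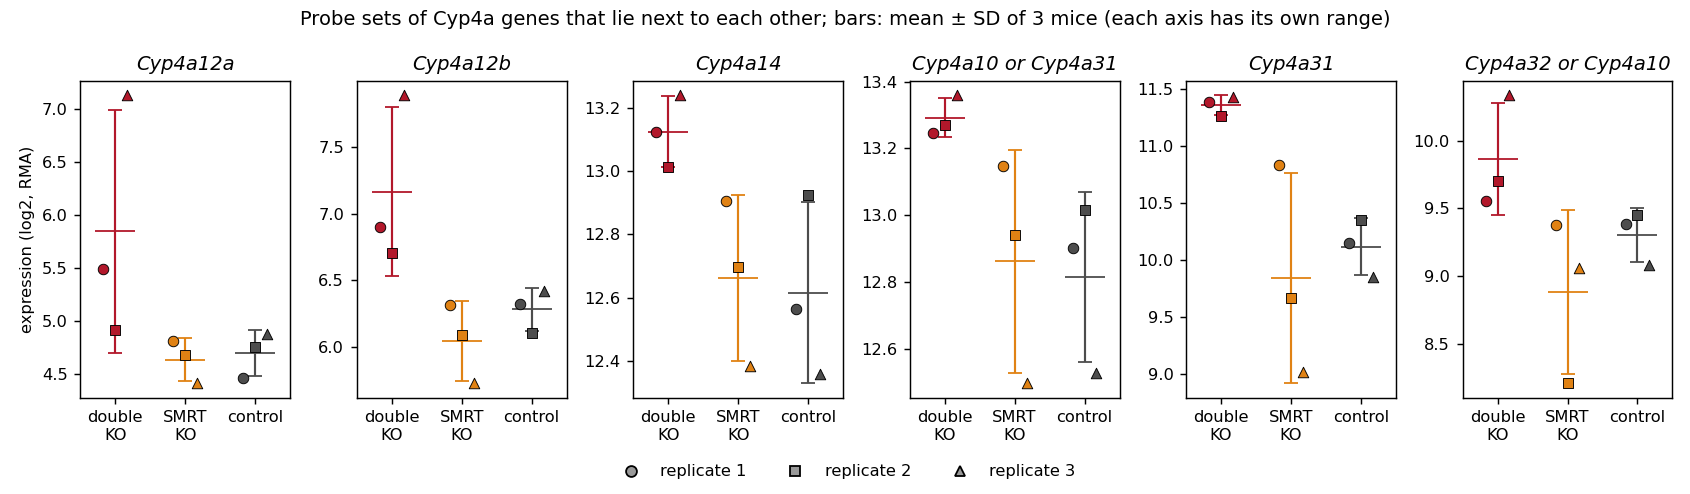
Expression (log2) per mouse of 6 probe sets of neighbouring Cyp4a genes in double KO, SMRT KO and control livers, with the mean and SD of 3 mice. The mean is highest in double KO livers for each of the 6 drawn, and for Cyp4a31 alone the SMRT KO livers span 9.02 to 10.83.

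PPAR alpha itself and its partners gave 1 call. Ppara was at 10.44, 10.45 and 10.67 in double KO livers, at 10.39, 10.30 and 10.21 in SMRT KO livers and at 10.62, 10.47 and 10.47 in control livers. The SMRT KO livers were below all others, but the difference of -0.22 from control did not pass (adjusted p = 0.826), and double KO livers differed from control by 0.0022. Rxra, the PPAR partner RXR alpha, had -0.18 in double KO against control livers (adjusted p = 0.470). Of 17 receptor and coactivator genes 1 rose and 0 fell in double KO against control livers (0.523% and 0.32% of all genes). The 1 was Pparg, the fat-storing relative of PPAR alpha (log2 fold change 0.52, adjusted p = 0.0346). That call held in 1 of 9 fits that left out a mouse, the one without control replicate 2, with adjusted p up to 0.158, and was lost with only the 2 groups in the fit (0.107). SMRT KO livers had a Pparg mean close to that of double KO livers, 0.56 above control (adjusted p = 0.223). Chosen after their values were seen, the coactivators Ppargc1a and Lpin1 had log2 fold changes of -0.94 and -1.19, with the double KO livers below all controls (adjusted p = 0.159 and 0.13). Over the 17 genes the double KO livers lay below all controls for 5 and above them for 2 (7.25% and 7.73% of all genes). The 2 above were Pparg and Ppard, the latter at 0.34 (limma adjusted p = 0.096).

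Genes around Fgf21 and Bdh1 gave few calls. Of 6 FGF receptor and klotho genes 1 fell in double KO against control livers (0.32% of all genes). This was Fgfr4, the main FGF receptor of hepatocytes, at 8.18, 8.36 and 8.38 in double KO livers and at 8.69, 8.85 and 8.97 in control livers (log2 fold change -0.53, adjusted p = 0.0438). The groups did not overlap, and the call held in 1 of 9 fits that left out a mouse, the one without SMRT KO replicate 3, with adjusted p up to 0.156, and not with only the 2 groups in the fit (0.0956). The FGF21 coreceptor Klb had 0.06 and its partner receptor Fgfr1 -0.07. Of 14 genes of the ATF4 stress response 0 passed by limma in any comparison (3 had an unadjusted p under 0.05 in double KO against control, 1 in SMRT KO against control and 1 in double KO against SMRT KO livers, where 10.8%, 6% and 10.5% of all genes did), with Atf4 itself at -0.16 in double KO against control livers (adjusted p = 0.697). Of 10 genes of ketone body metabolism and transport 0 passed by limma in any comparison (1 had an unadjusted p under 0.05, in double KO against control livers, where 10.8% of all genes did), and their median in double KO against control livers was -4.2e-05.

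Vnn1's neighbour and relative Vnn3 had a log2 fold change of 0.07 in double KO against control livers (adjusted p = 0.831). Of 10 genes of pantetheine and coenzyme A metabolism, 0 passed by limma in double KO against control livers (2 had an unadjusted p under 0.05, as did 10.8% of all genes), while 2 rose in double KO against SMRT KO livers (0.748% of all genes). These were Pank1, which starts coenzyme A synthesis from pantothenate (1.32-fold, adjusted p = 0.0148), and Coasy, which completes it (1.27-fold, adjusted p = 0.0344). The call of Pank1 was lost without SMRT KO replicate 1, double KO replicate 2 or double KO replicate 3 (adjusted p up to 0.0596). That of Coasy was lost in 8 of 9 fits leaving out 1 mouse (up to 0.115), with only the fit without SMRT KO replicate 1 keeping it. Over the 15 alternatives Pank1 lost its call in 4 and Coasy in 11. Of 8 genes of the fasting and insulin response 1 fell in double KO against control livers (0.32% of all genes), Pck1, which commits carbon to glucose (log2 fold change -0.68, adjusted p = 0.00395, called in all 9 such fits). Igfbp1, which insulin represses, had 0.36 (adjusted p = 0.835) and an SD of 0.927 among SMRT KO livers.

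As to the tissue, hepatocyte markers were high in every liver, with a summed level of 15.75 to 15.83 in double KO, 15.88 to 15.96 in SMRT KO and 15.90 to 15.94 in control livers. In whole liver, fewer cells of a type and less RNA per cell cannot be told apart. Of 8 hepatocyte markers 1 fell and 0 rose in double KO against control livers (0.32% and 0.523% of all genes). This was Serpina1a (log2 fold change -0.47, limma adjusted p = 0.0251). Double KO livers lay below all controls for 3 of the 8 and above them for 0 (7.25% and 7.73% of all genes). The 10 macrophage markers summed to 11.97 to 12.21 in double KO, 12.24 to 12.43 in SMRT KO and 11.98 to 12.19 in control livers. Pericentral hepatocyte markers summed to 14.93 to 14.97 in double KO, 14.96 to 15.10 in SMRT KO and 15.06 to 15.13 in control livers. Periportal ones summed to 14.32 to 14.42 in double KO, 14.27 to 14.54 in SMRT KO and 14.22 to 14.41 in control livers. Adipocyte markers (7.77 to 8.17 over all livers) and pancreatic acinar markers (7.77 to 8.06) had the lowest summed levels of the lists. Over single markers and livers the adipocyte ones lay between 4.26 (Adipoq) and 6.80 (Retn), and the acinar ones between 3.78 (Cpb1) and 6.87 (Ctrb1). Some, such as Retn and Ctrb1, thus exceeded the receptors' 95th percentiles. The part of these marker differences in the results was not tested. Over all probe sets, arrays of 1 group correlated at 0.987 to 0.992 and arrays of different groups at 0.983 to 0.989.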

How the data were processed

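Liver RNA of 9 mice (200 ng each) was labelled and read on 1 array per mouse. The deposited log2 values, 41345 probe sets by 9 arrays, were made by the authors with RMA, per the submitters' processing notes, which subtracts background, quantile-normalizes the arrays together and summarises probes, so that a shift common to nearly all genes is removed. No version of it is named in the sources used here. Arrays carry no read depth, and their number limits precision.

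Groups came from the sample titles. Of the probe sets, 23521 had 1 gene symbol, 1814 had several and 16010 were not listed in the platform annotation. The single-symbol probe set with the highest mean stood for each of 22180 genes, with no filter. Promoter letters and gene order came from RefSeq (GRCm38.p6). Tests used limma 3.58.1 (R 4.3.3), in 1 model over all 9 arrays with no block (6 residual and 3.36 prior degrees of freedom), two-sided, with Benjamini-Hochberg adjustment over all genes, and called below 0.05. The script was first tested on simulated data. With 3 mice against 3, the smallest p an exact permutation test allows is 0.1; it was left out.

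The members, lists and rule for named genes were chosen with earlier results of these data known. Named were the 5 members, up to 5 called genes per list with the largest change, 9 fixed genes, as far as they were measured, and the 3 genes nearest in pattern to each member. Other genes, markers included, were named after their values were seen. Same-numbered mice were not treated as pairs. Their deviations from group means correlated at -0.08 to 0.12, and those of differently numbered mice at -0.154 to 0.165. With 3 mice per group these values cannot show whether a number marks a shared litter, batch or day. Alternatives were the 2 groups alone, the replicate block, each mouse left out, dim genes (mean under 5) left out, cyclic loess, the mean of probe sets, and trended robust moderation.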

Additional observations from a re-analysis of the deposited data

How the results depend on the processing

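None of the 5 genes passed in SMRT KO against control livers under any of 15 alternatives, and Vnn1, Cyp4a14, Fgf21 and Bdh1 passed in none of the 3 comparisons. Counts of called genes over the whole array were 187, 1 and 263 in double KO and then SMRT KO livers against control, and in double KO livers against SMRT KO livers, with 237 for any difference. With only the 2 groups in the fit the first 3 became 109, 0 and 124. The replicate block, which does not rest on a known pairing, gave 2 in SMRT KO against control and 151 for any difference; it ended the calls of Pdk4 (adjusted p = 0.0693) and Pparg (0.053) in double KO against control livers, and Coasy (0.0773) in double KO against SMRT KO livers. Leaving out 1 mouse gave 61 to 179, 0 to 23, 101 to 234 and 60 to 237 in the same order, and 4 to 8 of the other PPAR alpha targets. Such fits have fewer mice; otherwise the cause was not tested. Leaving out 1 mouse also turned the sign of small differences that did not pass. In double KO against control livers Fgf21 ranged from -0.12 to 0.031, Bdh1 from -0.24 to 0.029, Ppara from -0.074 to 0.052, Klb from -0.066 to 0.12 and Fgfr1 from -0.11 to 0.0076. In SMRT KO against control livers Fgf21 ranged from -0.078 to 0.20, Vnn1 from -0.12 to 0.25, Cyp4a14 from -0.082 to 0.20, Cyp4a31 from -0.77 to 0.13 and Bdh1 from -0.056 to 0.21, and in double KO against SMRT KO livers Fgf21 from -0.25 to 0.033.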

Other observations

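The 10 macrophage markers all had a log2 fold change above 0 in SMRT KO against control livers, with a median of 0.26, where 11178 of all 22180 genes were above 0. Of the 10, 0 passed by limma (0.00451% of all genes) and 5 had an unadjusted p under 0.05 (6% of all genes). Of the 10 pericentral markers 1 fell and 0 rose in double KO against control livers (0.32% and 0.523% of all genes). This was Cyp1a2, a P450 of xenobiotic metabolism (log2 fold change -0.41, limma adjusted p = 0.0239). Tbx3 of the same list went the other way, at 0.62 (adjusted p = 0.411). Double KO livers lay below all controls for 4 of the 10 and above them for 1 (7.25% and 7.73% of all genes). The median of the 10 was -0.17 in that comparison and -0.16 in SMRT KO against control livers.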
